A study of Sus scrofa with 8 samples.

Results

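The membrane that lines a joint, the synovium, lies on fatty tissue in some places and on fibrous tissue in others, and mesenchymal stem cells can be cultured from either. The question examined here was whether the difference between cells from adipose synovium (FP) and cells from fibrous synovium (FS) was the same in 2 pig breeds, German Landrace (DL) and Angeln Saddleback (AS). For each probe set the value FP minus FS was taken in each breed, and the contrast was the value in AS minus the value in DL. All 47722 probe sets that are not controls, of 47845 on the array, entered the contrast, and all 8 arrays of the series were used. A positive contrast means that FP stood higher relative to FS in AS than it did in DL, and a negative contrast means the reverse.

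The cells came from the stifle joints of male piglets 59 days old, 3 of each breed. FP cells were grown from the lining of the infrapatellar fat pad and FS cells from that of the lateral joint capsule, and RNA was taken from undifferentiated pools of cells at passage 3. Each combination of breed and tissue (DL-FP and DL-FS, AS-FP and AS-FS) was measured on 2 Porcine Snowball arrays, numbered 1 and 2. Nothing in the labels says that the 2 arrays of a group came from separate animals or cultures, so p-values measure only how far arrays differ, a spread that may be technical. Each breed stands here for a few piglets, and a difference between breeds cannot be told apart from one between these animals. Because the cells were measured in bulk, fewer cells of a kind and less RNA per cell cannot be told apart either.

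Fibroblast-like cells of the synovium build and remodel the extracellular matrix, secrete growth factors and their antagonists, and make complement proteins. In culture they divide, and the genes of DNA replication and mitosis rise and fall together with the share of cells that are cycling. Fibroblasts under tension also raise smooth muscle actin and other contractile genes, as they do when they become myofibroblasts.

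Levels are given on a log2 scale, on which 1 unit is a doubling of signal. Array medians ran from 4.579 to 4.636, and the medians of 69 background probe sets from 2.658 to 2.813. A probe set was taken as above background where the mean of at least 1 group exceeded 2.813, which held for 37624 probe sets. Pearson's r between pairs of arrays was 0.982 to 0.99. The array DL-FP 1 was the lowest of the 8 on all 9 hybridisation control probe sets, by 0.57 to 1.21 against the mean of the others. Of the genes that mark mesenchymal stem cells, CD44 lay between 8.74 and 9.45, THY1 between 10.82 and 11.26 and ENG between 9.03 and 9.48 over the 8 arrays. NT5E, another of these markers, lay near background at 2.74 to 3.22.

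No single probe set passed the threshold of an adjusted p of 0.1 for the contrast, which is 0% of 47722. The lowest adjusted p was 0.19, shared by 11 probe sets, and the lowest unadjusted p was 1.08e-05. At an unadjusted p under 0.05, 1345 probe sets (2.82%) had a positive contrast and 1593 (3.34%) a negative one. Together these are 6.16% of all probe sets, where a threshold of this kind passes 5% of unchanged ones. Many genes have more than 1 probe set, and those above background were therefore also averaged within each gene.

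After this averaging, 31 of 12541 genes (0.247%) passed an adjusted p of 0.1. Of the 31, 21 had 1 probe set above background and 10 had 2 or more. For those 21 nothing was averaged, and the fit per gene differed only in its number of features and its prior. The contrast was positive in 20 of the 31 and negative in 11, and its size ran from 0.63 to 2.01. By sign alone FP and FS stood in opposite order in the breeds in 23 of the 31, and in 14 of these both differences were at least 2 SE from 0. S100A2, SFRP4, ACTG2 and LOC100158121 were among those with a difference near 0 in AS, and choosing genes by a large contrast favours opposite signs. The positive genes were MGP, PLCXD3, TNFSF13B, SESN3, COL11A1, PTN, C7, SFRP4, LOC100513671, GRIN3A, CMAH, OLFML2B, ADAMTS5, SLC5A7, PTGFR, KCNJ8, LAMA2, ANKRD10, CCDC80 and TFPI2. The negative genes were LOC100154959, NOV, EREG, ENO3, GREM1, DTL, ACTG2, CDK1, S100A2, LOC100158121 and SPOCK3. In 12 of the 31 genes the group farthest from the mean of the other groups was DL-FS, above them in 6 and below in 6. AS-FP was the farthest group in 11 genes, above the others in 8 and below in 3. AS-FS, below the others, was farthest in 4 genes, and DL-FP in the remaining 4. Across the 12541 genes, FP minus FS in DL correlated with FP minus FS in AS with Pearson's r of 0.193, a description over genes that share arrays and are not independent.

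**Figure D1:**
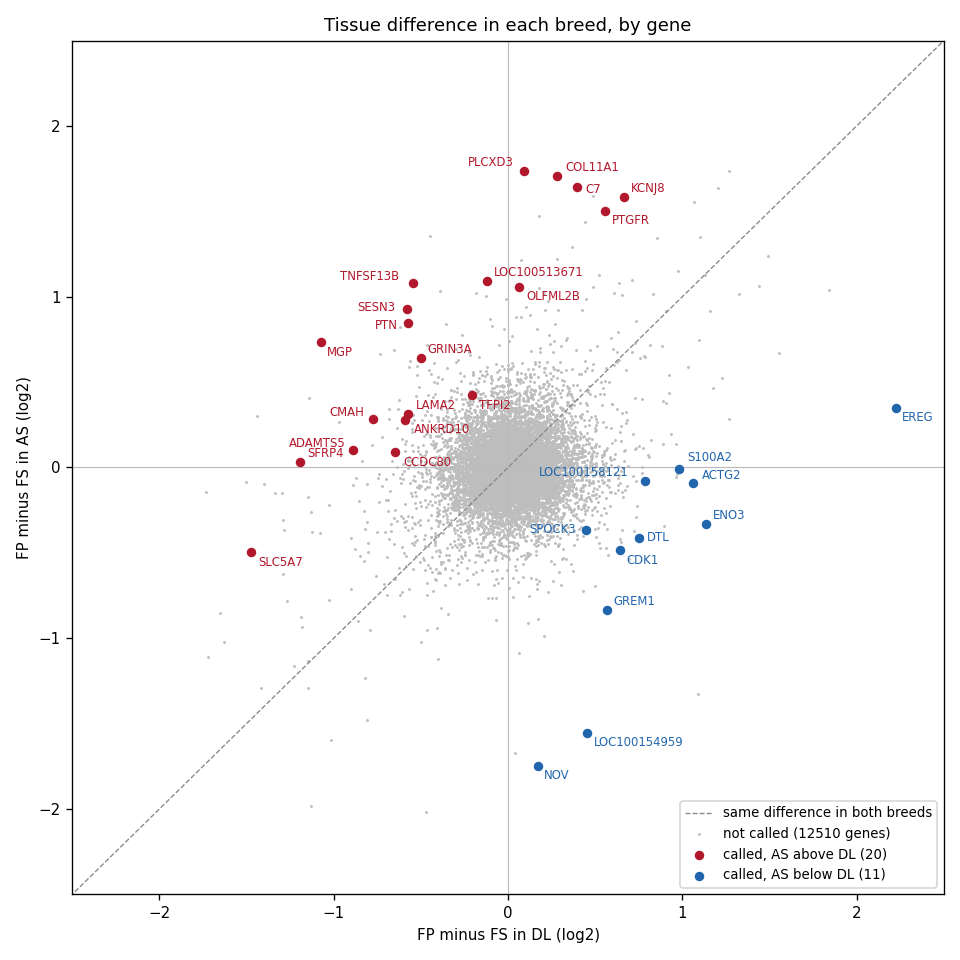
FP minus FS in DL (horizontal axis, log2) against FP minus FS in AS (vertical axis, log2) for the 12541 genes averaged over their probe sets above background. The 20 genes called with a positive contrast are red and lie above the dashed line of equal difference, and the 11 with a negative contrast are blue and lie below it.

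These calls depended on single arrays and on the pairing of arrays by their number. With each of the 8 arrays left out in turn, COL11A1, MGP, PTGFR, PTN, SESN3 and SFRP4 were called in all 8 fits. EREG was called in 7 and lost its call without DL-FP 1, at an adjusted p of 0.106, whereas SPOCK3 was called in none. The number of genes called was 9 without DL-FP 1, 8 without DL-FP 2, 11 without AS-FP 1 and 9 without AS-FS 2, and it rose to 72 without DL-FS 1. Of the 31 genes, 27 were among those 72. Without the replicate number as a block only MGP and EREG were called, both at an adjusted p of 0.0961. A plain linear model with the block and without moderation of variances called 0 genes, and 5 were called without the trend in the variances.

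A second reading asked which genes had several probe sets pointing the same way. Among 5528 genes with 2 or more probe sets above background, 66 (1.19%) had agreeing probe sets with a positive contrast and 72 (1.3%) with a negative one. Agreement meant at least 2 probe sets, these being no fewer than the remaining ones above background, at an unadjusted p under 0.05 in 1 direction with none in the other. PLCXD3, ACKR4, SFRP4, ABCC9 and GRIN3A headed the positive genes by median contrast, and EREG, CDK1, FGF13, CIB1 and CDCA7 headed the negative ones. For lists of genes each gene was represented by its brightest probe set, and by this rule 359 of 13443 genes (2.67%) had a positive contrast and 592 (4.4%) a negative one at an unadjusted p under 0.05. The median contrast over these 13443 genes was -0.03. Members of lists are described below by counts at that unadjusted threshold, and a member called high or low there did not pass the adjusted one unless it is among the 31.

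The genes of the cell cycle and mitosis had the highest count of any of the 51 lists with a measured member. Of 55 measured, 33 had a negative contrast at an unadjusted p under 0.05 and none a positive one, and 53 of the 55 had a value below 0. Their median contrast was -0.50. In DL these genes stood higher in FP than in FS, with a median FP minus FS of 0.45, and in AS the same median was -0.04. DL-FS was the group that stood apart. In 32 of the 33 genes it lay farthest from the other groups, below them. Between breeds, the median of AS minus DL was 0.58 in FS cells and 0.11 in FP cells. The mean level of the 55 genes was 7.37 and 6.81 on the arrays of DL-FP, 6.96 and 6.35 in DL-FS, 7.36 and 6.98 in AS-FP, and 7.40 and 7.06 in AS-FS. Within each array number DL-FS was the lowest group, but its array 1 lay above array 2 of DL-FP, so the groups overlapped.

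CDK1, the kinase that drives entry into mitosis, was the only gene of this list among the 31 called. Its averaged level was 6.08 and 5.36 in DL-FP, 5.41 and 4.74 in DL-FS, 5.85 and 5.05 in AS-FP, and 6.10 and 5.77 in AS-FS. DL-FS had the lowest mean and AS-FS the highest, and array 1 exceeded array 2 in every group. The contrast was -1.13 (SE 0.19, adjusted p = 0.0672). Of its 3 probe sets above background 2 had an unadjusted p under 0.05, and the other, at -0.72, narrowly did not. With 1 array left out at a time the call was kept in 1 fit of 8, and the adjusted p reached 0.351.

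Among genes of DNA replication and repair, 11 of 18 had a negative contrast at the unadjusted threshold, with a median of -0.53 over the 18. The helicase that opens DNA at replication origins was represented by 5 of its subunits, MCM2, MCM3, MCM4, MCM6 and MCM7, while MCM5 did not pass. The brightest probe set of MCM7 read 8.38 and 7.47 in DL-FP, 7.67 and 6.86 in DL-FS, 8.56 and 7.55 in AS-FP, and 8.65 and 7.96 in AS-FS. On both array numbers DL-FS was lowest and AS-FS highest. The contrast was -0.91 (SE 0.15), and the other 4 probe sets of MCM7 ranged from -0.57 to 0.14. PCNA, the sliding clamp of DNA polymerase, had a contrast of -0.57 (SE 0.13) on its brightest probe set and -0.88 on the next. Another probe set of PCNA near background gave 1.48 with an SE of 0.94 and carries little information. RRM2, a subunit of the enzyme that makes deoxyribonucleotides, had a contrast of -0.70 (SE 0.16) on its brightest probe set, -0.80 on the next and 0.69 on the last, and their average was -0.27 (unadjusted p = 0.107).

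DTL, which directs the destruction of replication licensing factors, was not in the list but was among the 31 called genes. It read 7.51 and 6.92 in DL-FP, 6.85 and 6.09 in DL-FS, 7.58 and 6.88 in AS-FP, and 7.77 and 7.51 in AS-FS. The pattern over groups was that of CDK1, with DL-FS lowest and AS-FS highest. In DL FP minus FS was 0.75 and in AS -0.41, a contrast of -1.16 (SE 0.17, adjusted p = 0.0304). The call was kept in 2 of 8 fits with an array left out, with a highest adjusted p of 0.191. KNTC1, a kinetochore component, CDCA7, KIF14, a mitotic kinesin, and BRCA1, a DNA repair protein, were among the 20 leading genes with agreeing probe sets. Their median contrasts were -0.79, -0.81, -0.76 and -0.66, and none passed the adjusted threshold after averaging.

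Of the mitotic spindle, kinetochore and cytokinesis genes, 16 of 23 passed with a negative contrast and all 23 had values below 0. UBE2C, a ubiquitin-conjugating enzyme of mitotic exit, read 7.36 and 6.65 in DL-FP, 6.61 and 5.46 in DL-FS, and 6.96 to 7.60 on the 4 arrays of AS. On arrays of either number DL-FS was lowest, and the contrast was -1.01 (SE 0.21). CENPA, the histone variant of centromeres, had a contrast of -0.77, BIRC5, or survivin, -0.68, and AURKA, a spindle kinase, -0.66. PLK1, another mitotic kinase, stood at -0.56 (SE 0.24), with an average of -0.41 over its 2 probe sets (unadjusted p = 0.0645). BUB1, a checkpoint kinase, stood at -0.64 on its brightest probe set, but its other 2 gave -0.53 and 0.63 and the average was -0.18 (SE 0.20). Among cyclins, kinases and regulators 6 of 14 passed, including the mitotic cyclins CCNB1 at -0.73 and CCNB2 at -0.83. MKI67, the gene of the proliferation antigen Ki-67, did not pass on its brightest probe set, with a contrast of -0.18 (SE 0.23), nor did TOP2A, a topoisomerase of dividing cells, at -0.22 (SE 0.18). Averaged over 2 probe sets each, TOP2A stood at -0.40 (unadjusted p = 0.0293) and MKI67 at -0.29 (unadjusted p = 0.14). The genes other than CDK1, MCM7, UBE2C, PCNA and those with agreeing probe sets were singled out after their values were seen.

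The same genes also differed between arrays 1 and 2 within groups. Array 1 exceeded array 2 for 53 of the 55 genes in DL-FP, 53 in DL-FS, 52 in AS-FP and all 55 in AS-FS, with median gaps of 0.55, 0.64, 0.36 and 0.32. The replicate number therefore moved with this list by amounts near the median contrast, and what the number stands for is not given in the sources used here. Its part in the result was not tested beyond fitting it as a block. Without the number as a block 3 of the 55 genes passed in place of 33, while the median of -0.50 was the same. The count was 16 without DL-FP 1 or without AS-FP 1, 15 without AS-FS 2 and 20 without DL-FS 2, and the median stayed between -0.36 and -0.63 with any array left out.

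**Figure D2:**
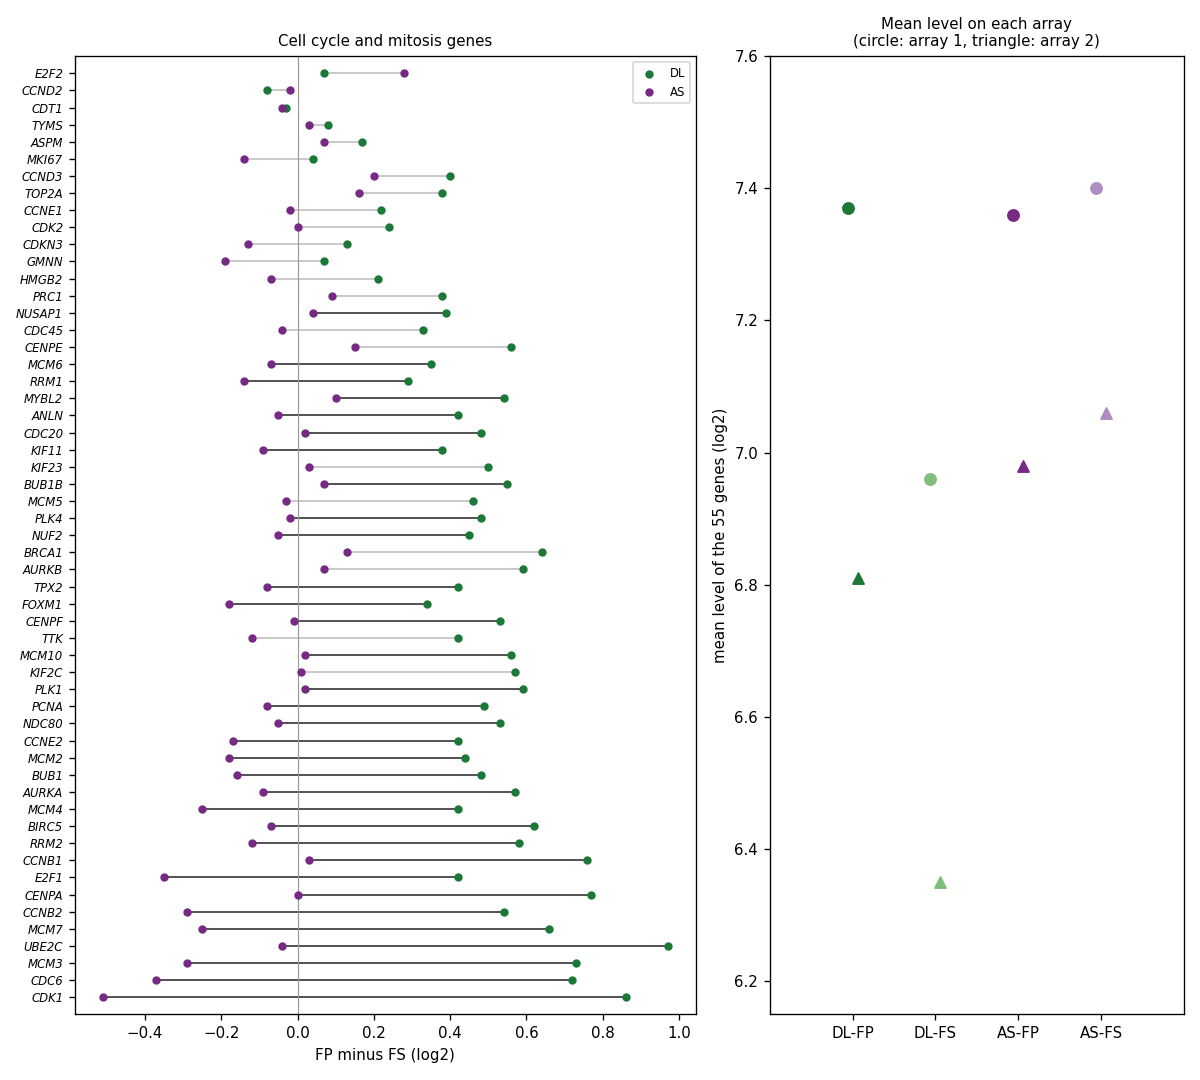
Left, FP minus FS (log2) in DL (green) and AS (purple) for the 55 cell cycle and mitosis genes, each by its brightest probe set, with a dark line where the contrast had an unadjusted p under 0.05 (33 genes) and a grey line elsewhere. Right, the mean level of the 55 genes on each array, lowest in DL-FS for arrays of the same number and higher on array 1 than on array 2 in all groups.

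Contractile and actin genes leaned the same way with smaller sizes. Of 31 measured, 8 had a negative contrast at the unadjusted threshold and none a positive one, and the median was -0.21, which moved to -0.09 without DL-FS 2. FP minus FS had a median of 0.19 in DL and -0.05 in AS. ACTG2, the enteric smooth muscle actin, was among the 31 called genes, at 11.36 and 10.27 in DL-FP, 10.59 and 8.92 in DL-FS, 10.82 and 9.72 in AS-FP, and 10.84 and 9.88 in AS-FS. Array 1 lay well above array 2 in each group, so the groups overlapped widely although DL-FS had the lowest mean. The contrast was -1.15 (SE 0.20, adjusted p = 0.0672), it was called in 3 of 8 fits with an array left out, and without the block its adjusted p was 1.

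ACTA2, the smooth muscle actin of myofibroblasts, had a contrast of -0.44 (SE 0.12) on its brightest probe set and -0.46 on the other. LMOD1, an actin nucleator of smooth muscle, stood at -0.63 (SE 0.19) and PDLIM7, a scaffold protein of actin filaments, at -0.42 (SE 0.11) on its brightest probe set, against an average of -0.23 over 7 (unadjusted p = 0.172). TAGLN, the actin-binding protein transgelin, stood at -0.39 and TPM2, a tropomyosin, at -0.64. A second probe set of TPM2 went the other way at 0.52 with an SE of 0.42. TAGLN and TPM2 were named after their values were seen. Without the block 1 of the 31 genes passed, and without AS-FS 2 the count was 3 and without AS-FP 1 it was 4. As with the cell cycle genes, array 1 exceeded array 2 for 21 to 26 of the 31 genes in each group.

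**Figure D3:**
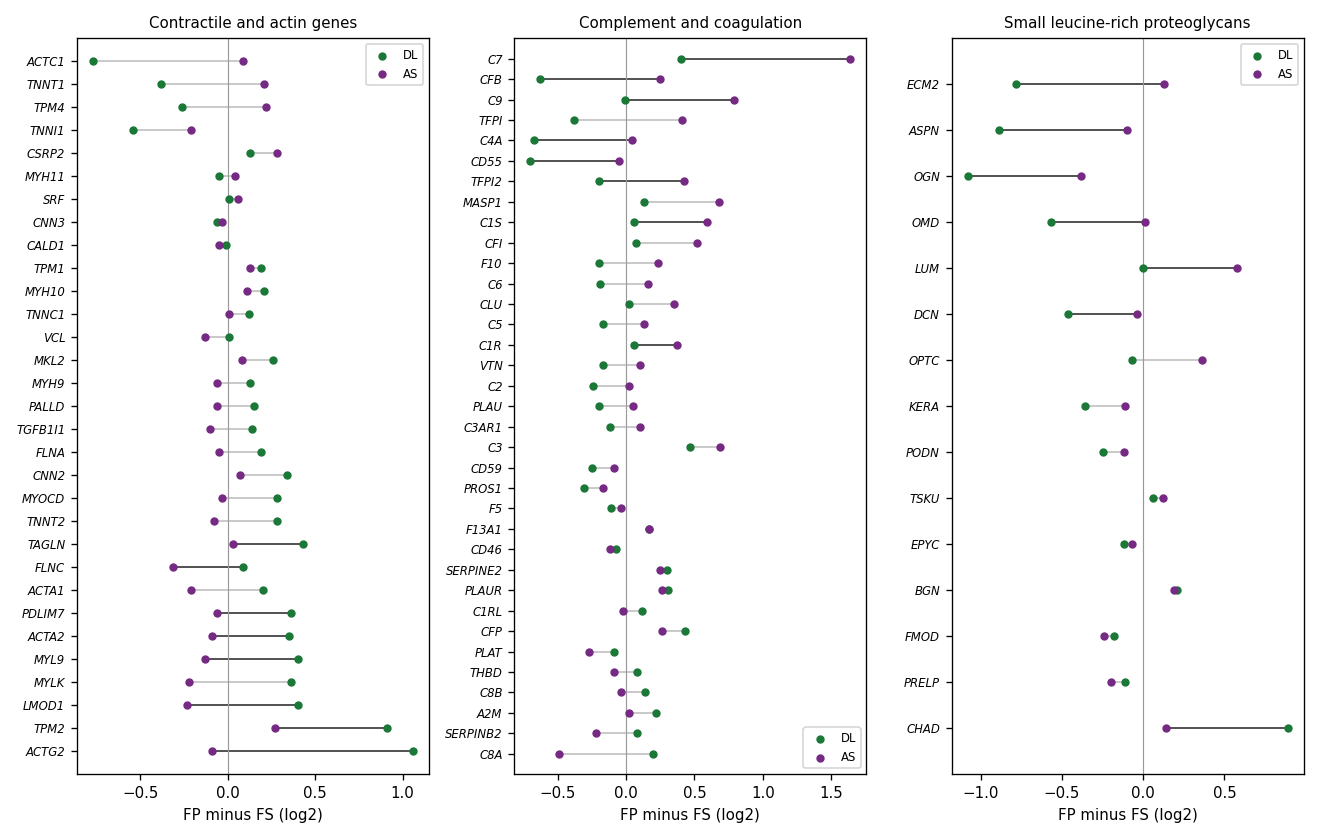
FP minus FS (log2) in DL (green) and AS (purple) for the measured members of the lists of contractile and actin genes (31), complement and coagulation genes (35) and small leucine-rich proteoglycans (15), each by its brightest probe set. Dark lines join genes with an unadjusted p under 0.05, which are 8, 8 and 7.

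Growth factors and antagonists were among the negative genes. EREG encodes epiregulin, a ligand of the EGF receptor. Its averaged level was 6.30 and 6.11 in DL-FP, 4.09 and 3.87 in DL-FS, 4.92 and 4.70 in AS-FP, and 4.34 and 4.58 in AS-FS. Both arrays of DL-FP lay above all others by more than 1, and those of AS-FP lay above those of both FS groups. FP exceeded FS 4.67-fold in DL (2.22 on the log2 scale, SE 0.15) and 1.27-fold in AS (0.35, SE 0.15). The contrast was -1.87 (SE 0.22, adjusted p = 0.00982), with -2.17 and -1.58 on its 2 probe sets. Of the other EGF family ligands and receptors none passed at the unadjusted threshold, so EREG was 1 of 14 measured.

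GREM1, a secreted antagonist of bone morphogenetic proteins, was represented by 1 probe set. It read 7.09 and 7.18 in DL-FP, 6.52 and 6.62 in DL-FS, 5.63 and 5.28 in AS-FP, and 6.24 and 6.34 in AS-FS. The 4 groups did not overlap, and FP was the highest group in DL and the lowest in AS. FP minus FS was 0.57 in DL and -0.83 in AS, a contrast of -1.40 (SE 0.18, adjusted p = 0.0212). The call was kept in 5 of 8 fits and lost without DL-FP 1, DL-FP 2 or AS-FS 2, with a highest adjusted p of 0.144. NOG, another antagonist of these proteins, had a contrast of -0.69 (SE 0.20) on its brightest probe set and 0.52 on the other. TGFBR3, a co-receptor for TGF-beta, stood at 0.56 on its brightest probe set and 0.45 on the other.

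NOV, also known as CCN3, a matricellular protein, read 5.65 to 6.63 on the 4 arrays of DL, 4.77 and 5.02 in AS-FP, and 6.80 and 6.50 in AS-FS. AS-FP was low on both arrays, and AS-FS overlapped with DL. FS exceeded FP 3.36-fold in AS, while in DL FP minus FS was 0.17 with an SE of 0.23. The contrast was -1.92 (SE 0.32, adjusted p = 0.0599), called in 2 of 8 fits with an array left out. SPOCK3, a testican of the matrix, was the gene with most probe sets among the 31, and all 5 had an unadjusted p under 0.05. Their contrasts ran from -1.26 to -0.63, and the average was -0.81 (SE 0.14, adjusted p = 0.0771). It was called in none of the 8 fits with an array left out, where the adjusted p ran from 0.122 to 0.375.

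S100A2, a calcium-binding protein, read 7.86 and 7.42 in DL-FP, 6.72 and 6.60 in DL-FS, 8.25 and 7.98 in AS-FP, and 8.16 and 8.09 in AS-FS. DL-FS lay below all other arrays, DL-FP below both AS groups, and the AS groups overlapped. FP minus FS was 0.98 in DL and -0.01 in AS (contrast -0.99, SE 0.15, adjusted p = 0.0309). ENO3, the muscle form of enolase in glycolysis, had a contrast of -1.46 (SE 0.25, adjusted p = 0.0602) with DL-FS again the lowest group at 6.96 and 5.99. GYS1, the muscle form of glycogen synthase, had 3 agreeing probe sets between -0.65 and -0.57 and an adjusted p of 0.12 after averaging.

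MGP, called with a positive contrast, encodes matrix Gla protein, an inhibitor of calcification. It read 6.34 and 6.53 in DL-FP, 7.34 and 7.69 in DL-FS, 7.07 and 6.89 in AS-FP, and 6.22 and 6.27 in AS-FS. The tissues did not overlap within either breed, and their order was opposite. FS exceeded FP 2.11-fold in DL, and FP exceeded FS 1.66-fold in AS. The contrast was 1.81 (SE 0.18, adjusted p = 0.00982), and it was called in all 8 fits with an array left out and without the block.

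SFRP4, a secreted antagonist of Wnt signalling, was averaged over 2 probe sets, at 9.17 and 8.88 in DL-FP, 10.33 and 10.10 in DL-FS, 9.32 and 8.99 in AS-FP, and 9.42 and 8.83 in AS-FS. DL-FS lay above the other 3 groups, which overlapped. FP minus FS was -1.19 (SE 0.09) in DL and 0.03 (SE 0.09) in AS, a contrast of 1.23 (SE 0.13, adjusted p = 0.00982). Its probe sets gave 1.07 and 1.38, and the call was kept in all 8 fits with an array left out. Of 22 Wnt modulators, SFRP4 and APCDD1, a membrane-bound Wnt inhibitor, passed at the unadjusted threshold, both with a positive contrast, and the median of the list was 0.24. APCDD1 stood at 0.45 on its brightest probe set and 0.37 on average (unadjusted p = 0.088).

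PTN, pleiotrophin, a heparin-binding growth factor, read 5.02 and 5.16 in DL-FP, 5.66 and 5.67 in DL-FS, 6.26 and 6.37 in AS-FP, and 5.35 and 5.59 in AS-FS. DL-FP was the lowest group and AS-FP the highest, with no overlap between them and the FS groups. In DL FP minus FS was -0.57 and in AS 0.85 (contrast 1.42, SE 0.16, adjusted p = 0.00982). SESN3, a sestrin that restrains growth signalling under stress, read 6.84 and 7.10 in DL-FP, 7.33 and 7.77 in DL-FS, 7.07 and 7.08 in AS-FP, and 5.96 and 6.34 in AS-FS. AS-FS was lowest on both arrays, and DL-FS highest. The difference of FP and FS was -0.58 in DL and 0.93 in AS (contrast 1.51, SE 0.17, adjusted p = 0.00982).

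**Figure D4:**
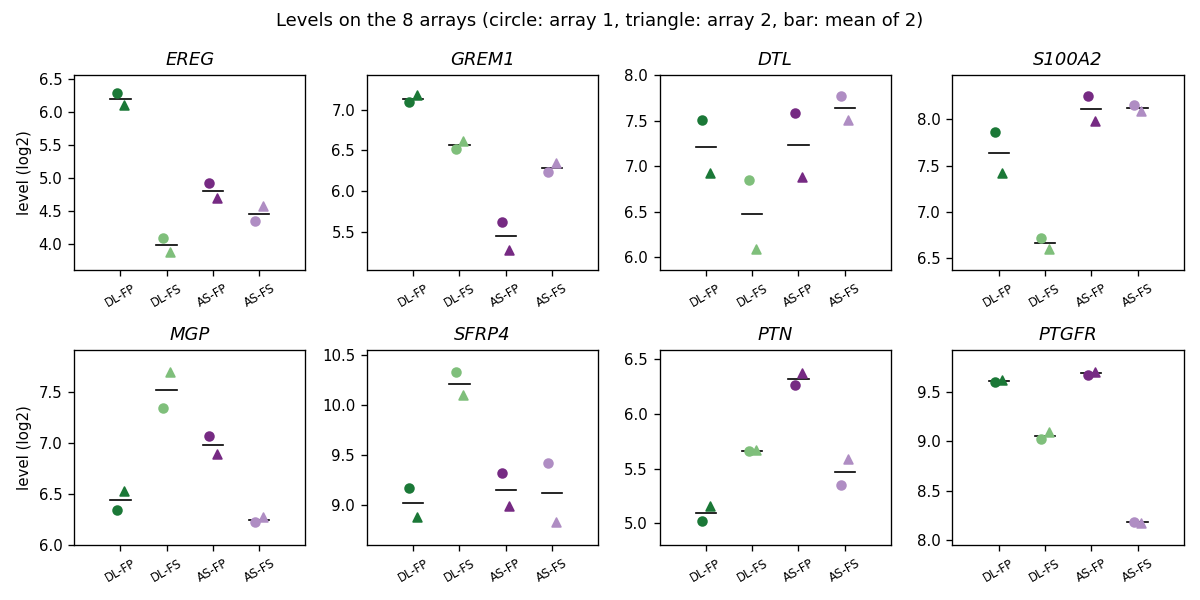
Log2 level on each array for 8 of the 31 called genes, averaged over the probe sets above background, by group (circle, array 1; triangle, array 2; bar, mean). The upper row has a negative contrast, with DL-FP above DL-FS in each panel, and the lower row a positive one, with FP above FS in AS for MGP, PTN and PTGFR, and with SFRP4 highest in DL-FS.

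The small leucine-rich proteoglycans, which bind collagen fibrils and growth factors, had a median contrast of 0.25. Of 15 measured, 6 had a positive contrast at the unadjusted threshold, namely ASPN, OMD, OGN, ECM2, DCN and LUM, and CHAD had a negative one. ASPN, asporin, read 10.93 and 10.80 in DL-FP, 11.65 and 11.85 in DL-FS, 11.29 and 11.09 in AS-FP, and 11.46 and 11.12 in AS-FS. DL-FS lay above all other arrays, and the AS groups overlapped. The contrast was 0.78 (SE 0.17). OMD, osteomodulin, stood at 0.58 (SE 0.14), OGN, osteoglycin, at 0.70 (SE 0.19) and ECM2 at 0.92 (SE 0.29).

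DCN, decorin, had a contrast of 0.42 (SE 0.14) with FP minus FS of -0.46 in DL and -0.04 in AS. LUM, lumican, differed in its pattern, since FP and FS were alike in DL (0.00) and FP was higher in AS (0.58). In 5 of the 7 genes that passed, DL-FS was the group farthest from the rest, above it. CHAD, chondroadherin, stood at -0.75 (SE 0.24), with 8.02 and 7.53 in DL-FP against 6.19 to 6.91 on the other arrays. DCN, LUM and CHAD were named after their values were seen, none of the 7 passed an adjusted threshold, and between 4 and 7 members passed with a positive contrast with 1 array left out. The median of the list moved between 0.09 without AS-FP 1 and 0.51 without AS-FP 2.

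COL11A1, the alpha 1 chain of type XI collagen of cartilage and thin fibrils, read 6.12 and 5.69 in DL-FP, 5.90 and 5.33 in DL-FS, 7.35 and 6.75 in AS-FP, and 5.73 and 4.96 in AS-FS. AS-FP lay above all other arrays and the other 3 groups overlapped. FP exceeded FS 3.26-fold in AS and 1.22-fold in DL (contrast 1.42, SE 0.16, adjusted p = 0.00982). Other collagens shared little of this. Of 32 collagen genes measured, COL8A1 and COL12A1 had a positive contrast at the unadjusted threshold, at 1.31 and 0.39, COL4A1 a negative one at -0.44, and the median was 0.01. COL12A1, a fibril-associated collagen, had 3 probe sets that gave 0.37, 0.39 and 0.48.

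LAMA2, the laminin alpha 2 chain of basement membranes, had 3 probe sets between 0.83 and 0.92. It read 6.74 and 6.74 in DL-FP, 7.30 and 7.33 in DL-FS, 7.50 and 7.58 in AS-FP, and 7.16 and 7.30 in AS-FS. DL-FP was the lowest group and AS-FP the highest, while the FS groups of the breeds overlapped. The contrast was 0.89 (SE 0.13, adjusted p = 0.025), kept in 2 of 8 fits with an array left out, and the other laminin and basement membrane genes had none at the unadjusted threshold (1 of 28 in all, median 0.00).

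ADAMTS5, an aggrecan-degrading protease of cartilage, had 3 agreeing probe sets from 0.81 to 1.24. Its averaged level was 6.37 and 6.88 in DL-FP, 7.22 and 7.81 in DL-FS, 6.52 and 6.93 in AS-FP, and 6.32 and 6.93 in AS-FS. DL-FS was the highest group on arrays of either number, and FP minus FS was -0.89 in DL and 0.10 in AS (contrast 0.99, SE 0.14, adjusted p = 0.0237). The call was kept in 3 of 8 fits with an array left out, and the highest adjusted p was 0.144. Of 33 matricellular, fibulin and elastic fibre genes 2 (6.06%) had a positive contrast at the unadjusted threshold and 3 (9.09%) a negative one, with a median of 0.05. Of 59 matrix proteases and inhibitors 5 (8.47%) had a positive contrast and 2 (3.39%) a negative one. Over all genes these shares were 2.67% and 4.4%. MMP2, a gelatinase, stood at 0.55 and 0.45 on its 2 probe sets. CCDC80, a secreted matrix protein, was called at 0.74 (SE 0.12, adjusted p = 0.0402), with FP minus FS of -0.65 in DL and 0.09 in AS. ABI3BP, a matrix-binding protein, had probe sets at 1.17 and 1.12, with FP minus FS of -1.30 in DL and -0.15 in AS, and an adjusted p of 0.159 after averaging.

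Complement and coagulation genes had a median contrast of 0.25, and 8 of 35 had a positive contrast at the unadjusted threshold with none negative. C7, which joins the membrane attack complex, was measured by 1 probe set above background, at 5.16 and 5.69 in DL-FP, 4.70 and 5.34 in DL-FS, 6.96 and 7.38 in AS-FP, and 5.34 and 5.71 in AS-FS. AS-FP lay above all other arrays by more than 1. FP exceeded FS 3.12-fold in AS and 1.32-fold in DL (contrast 1.25, SE 0.17, adjusted p = 0.0212). The call was kept in 4 of 8 fits, and the highest adjusted p was 0.144.

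C1S and C1R, the serine proteases of the first complement component, had contrasts of 0.53 (SE 0.13) and 0.31 (SE 0.12) on their brightest probe sets. In both, FP minus FS was 0.06 in DL, against 0.59 and 0.37 in AS. A second C1R probe set gave 0.28, and the 3 probe sets of C1S ran from -0.87 to 0.53 and averaged 0.01 (SE 0.13). CD55, which speeds the decay of complement convertases, read 9.53 and 9.80 in DL-FP, 10.30 and 10.43 in DL-FS, 9.76 and 9.75 in AS-FP, and 9.79 and 9.82 in AS-FS. DL-FS stood above the other groups, and the contrast was 0.64 (SE 0.13). C4A and C9 had contrasts of 0.70 and 0.80. CFB gave 0.88 on its brightest probe set and -0.20 on the other, an average of 0.34 (SE 0.28, unadjusted p = 0.255), which turned to -0.05 with an array left out. CFB, C4A, C9 and C1R were named after their values were seen. TFPI2, an inhibitor of serine proteases, was called at 0.63 (SE 0.11, adjusted p = 0.0672) with FP minus FS of -0.20 in DL and 0.42 in AS. The median of the list was 0.16 when probe sets were averaged. The count of 8 became 5 without the block, 5 without AS-FS 2 and 13 without DL-FS 1.

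PTGFR, the receptor of prostaglandin F2-alpha, read 9.60 and 9.62 in DL-FP, 9.02 and 9.09 in DL-FS, 9.67 and 9.70 in AS-FP, and 8.19 and 8.18 in AS-FS. FP lay above FS in both breeds, and the breeds differed mainly in FS. FP exceeded FS 1.47-fold in DL and 2.83-fold in AS (contrast 0.95, SE 0.10, adjusted p = 0.00982), and the call was kept in all 8 fits with an array left out. Of 34 receptors for prostanoids, angiotensin, adenosine and catecholamines, 3 (8.82%) had a positive contrast and 2 (5.88%) a negative one. Over all genes these shares were 2.67% and 4.4%. PTGER3, a prostaglandin E2 receptor, was among the 2 negative ones at -0.89 on its brightest probe set and -0.07 on the other.

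KCNJ8 and ABCC9 encode the pore and the regulatory subunit of an ATP-sensitive potassium channel of vascular cells. KCNJ8 read 5.96 and 6.17 in DL-FP, 5.24 and 5.56 in DL-FS, 6.70 and 6.91 in AS-FP, and 5.08 and 5.36 in AS-FS. FP lay above FS in both breeds, and AS-FP above all. FP minus FS, averaged over 2 probe sets, was 0.67 in DL and 1.59 in AS (contrast 0.92, SE 0.15, adjusted p = 0.0587). The call was kept in 1 of 8 fits with an array left out. On its brightest probe set the contrast was 0.49 (unadjusted p = 0.0566), which did not pass the unadjusted threshold. ABCC9, averaged over 4 probe sets, read 5.06 and 5.57 in DL-FP, 4.27 and 5.38 in DL-FS, 5.31 and 5.90 in AS-FP, and 3.74 and 4.28 in AS-FS. Here AS-FS had the lowest mean, and the contrast was 1.11 with an adjusted p of 0.151. Potassium and calcium channels as a list had 6 of 47 members with a positive contrast and none negative, with a median of 0.11 that lay between 0.02 and 0.07 without DL-FP 2, DL-FS 2, AS-FP 1 or AS-FS 1, and the count was 2 without DL-FP 2 and 3 without DL-FS 2 or AS-FP 1. KCNK1, a potassium leak channel, followed ABCC9 at 0.81 (SE 0.17).

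Both channel subunits are also markers of pericytes. The summed level of 19 measured pericyte and smooth muscle markers was 118.6 to 120.9 in DL-FP, 114.0 to 115.1 in DL-FS, 118.9 to 119.8 in AS-FP and 114.4 to 114.6 in AS-FS, so it was higher in FP in both breeds. Of the 19, 1 had a positive contrast (ABCC9) and 4 a negative one, among them CSPG4 at -0.59. RGS5, a defining marker of pericytes, lay below background at 1.75 to 2.16. MYH11, the myosin of smooth muscle, lay above background at 4.72 to 5.14.

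GRIN3A, a subunit of NMDA-type glutamate receptors, averaged over 2 probe sets, read 5.71 and 5.65 in DL-FP, 6.09 and 6.28 in DL-FS, 7.55 and 7.67 in AS-FP, and 6.80 and 7.14 in AS-FS. Both AS groups lay above both DL groups, and the tissues stood in opposite order in the breeds. FP minus FS was -0.50 in DL and 0.64 in AS (contrast 1.14, SE 0.16, adjusted p = 0.0237). SLC5A7, the high-affinity choline transporter, read 5.22 and 4.91 in DL-FP, 6.67 and 6.42 in DL-FS, 7.43 and 7.18 in AS-FP, and 7.89 and 7.72 in AS-FS. FS was the higher tissue in both breeds, 2.78-fold in DL and 1.41-fold in AS (contrast 0.98, SE 0.14, adjusted p = 0.0237). Of 55 neurotransmitter receptors and transporters 3 (5.45%) had a positive contrast and 1 (1.82%) a negative one. Over all genes these shares were 2.67% and 4.4%.

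PLCXD3, a protein of the phospholipase C family, headed the genes with agreeing probe sets at 2.20 and 1.08. It read 3.06 and 3.25 in DL-FP, 2.88 and 3.25 in DL-FS, 5.42 and 5.74 in AS-FP, and 3.69 and 3.99 in AS-FS. The DL levels were close to background, so FP minus FS there (0.09) carries little information, and in AS it was 1.74. The contrast was 1.64 (SE 0.22, adjusted p = 0.0212). OLFML2B, an olfactomedin-domain protein, was called at 0.99 (SE 0.15, adjusted p = 0.0302) with AS-FS the low group at 6.70 and 7.20. TNFSF13B, the B cell survival factor BAFF, was called at 1.62 (SE 0.26, adjusted p = 0.0495) with FP minus FS of -0.54 in DL and 1.08 in AS. ANKRD10, an ankyrin repeat protein, was called at 0.87 (SE 0.12, adjusted p = 0.0237) with 0.79 and 0.94 on its 2 probe sets. CMAH, the enzyme that makes the sialic acid N-glycolylneuraminic acid, was called at 1.06 (SE 0.16, adjusted p = 0.0304) with FP minus FS of -0.78 in DL and 0.28 in AS.

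The insulin-like growth factor axis held members of both signs. Of 17 genes 3 had a positive contrast at the unadjusted threshold and 5 a negative one, with a median of -0.10. IGFBP2, a binding protein of these growth factors, read 10.48 and 10.61 in DL-FP, 9.68 and 9.92 in DL-FS, 8.94 and 9.29 in AS-FP, and 9.25 and 9.41 in AS-FS on its brightest probe set. DL-FP stood above all other arrays and the AS groups overlapped. FP minus FS was 0.75 in DL and -0.22 in AS (contrast -0.96, SE 0.12, adjusted p = 0.19), and the second probe set gave -0.66 with an SE of 0.38. STC2, stanniocalcin 2, an inhibitor of the protease PAPPA, stood at -0.91 (SE 0.16) on its brightest probe set. Its average over 2 probe sets above background was -0.69 (SE 0.16, adjusted p = 0.19).

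IGFBP4, a binding protein that PAPPA cleaves, had a contrast of 0.64 (SE 0.14) on its brightest probe set and 0.14 (SE 0.37) on the other, an average of 0.39 (SE 0.21, unadjusted p = 0.087). FP minus FS of IGFBP4 in DL was 0.29 on the brightest probe set and 0.04 on average. PAPPA had a contrast of 0.76 (SE 0.17) with 0.46 to 0.99 over its 4 probe sets, and FP minus FS was 0.28 in DL and 1.04 in AS on the brightest. IGF1 itself stood at 0.47 (SE 0.14) on its brightest probe set, with -0.12 to 0.85 over 7 probe sets. IGF2, IGFBP5 and IGFBP6 had small negative contrasts of -0.29, -0.37 and -0.33, and other probe sets of each gave values above 0. On average IGFBP5 stood at -0.11 and IGFBP6 at 0.12. The average of IGF2 over 14 probe sets was -0.33 (SE 0.12, unadjusted p = 0.0175, adjusted p = 0.421). IGF1, IGF2, IGFBP5 and IGFBP6 were named after their values were seen.

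Other genes with agreeing probe sets included surface proteins and transcription factors. EYA1, a transcriptional coactivator with phosphatase activity, had 3 probe sets from 0.80 to 1.14. AS-FP lay above the other groups at 6.94 and 6.80, and the average was 0.97 with an adjusted p of 0.103. ACKR4, a scavenging receptor of chemokines, read 4.22 and 4.46 in DL-FP, 5.44 and 6.26 in DL-FS, 4.19 and 4.12 in AS-FP, and 4.29 and 4.19 in AS-FS. DL-FS stood alone there, with a contrast of 1.42 and an adjusted p of 0.145. SCARA5, a ferritin receptor found on fibroblasts, had probe sets at 1.44 and 0.53, with FP minus FS of -1.29 in DL and -0.31 in AS. IL17RD, an inhibitor of FGF signalling, had a median contrast of 1.04 over 4 probe sets.

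Of 24 integrins, receptors for matrix, 2 had a positive contrast at the unadjusted threshold and 2 a negative one. These are 8.33% each, against 2.67% and 4.4% of all genes, and the median of the list was 0.01. ITGA6, a laminin-binding chain, had a median contrast of 0.94 over 3 probe sets and ITGA3, which also binds laminin, -0.68 over 4. Neither was called after averaging (adjusted p of 0.279 and 0.289). MET, the receptor of hepatocyte growth factor, stood at -0.62, with 6.64 and 6.23 in DL-FP and 5.68 to 5.93 on the other arrays. CSF1, the growth factor of macrophages, gave -0.64 and -0.63 on its 2 probe sets, and AS-FS was the high group. FGF13, an intracellular member of the FGF family, had a median of -1.08 at levels of 2.84 to 3.87, near background. CD34, a surface marker of adventitial fibroblasts and vessels, read 5.56 and 5.21 in DL-FP, 6.58 and 6.44 in DL-FS, 5.03 and 4.97 in AS-FP, and 7.16 and 6.81 in AS-FS. FS lay above FP in both breeds, and the contrast was -0.85 (SE 0.17, adjusted p = 0.119).

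The other lists differed less in their medians, and none of these shifts was tested. Of 51 lists with a measured member, 5 had a median of at least 0.2 in size, and the medians of the others ran from -0.16 to 0.17. The genes of cholesterol synthesis and uptake (21 measured), core pluripotency factors (14), endothelial markers (18) and the mitochondrial respiratory chain (37) had none at an unadjusted p under 0.05. In the respiratory chain, however, 29 of 37 values lay below 0, with a median of -0.16. Ribosomal proteins had 41 of 56 values below 0 with a median of -0.08, and interferon response genes had 28 of 35 above 0 with a median of 0.13. Heat shock and unfolded protein response genes had 25 of 31 below 0 (median -0.12), and hypoxia and glycolysis genes 26 of 34 (median -0.09). Over all 13443 genes 7382 values lay below 0. The limb position factors, which include the HOX genes, had a median of 0.02 over 65 genes, and 3 of them passed.

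**Figure D5:**
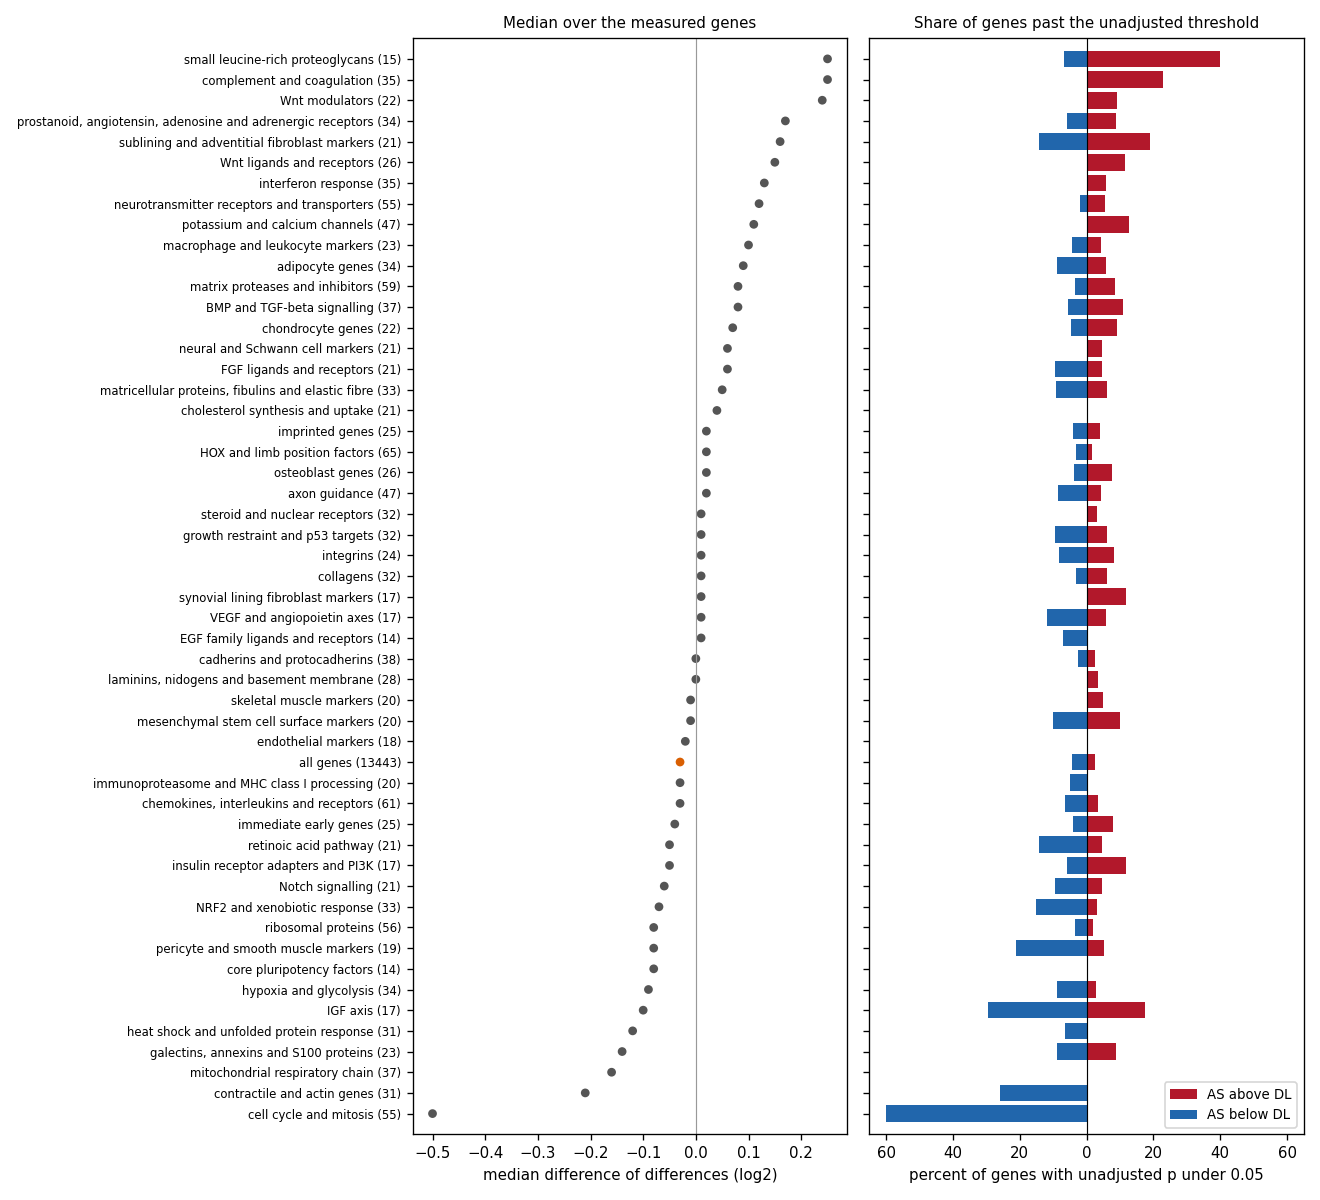
For each list, with the number of measured genes in parentheses, the median contrast (left, log2; all genes in orange) and the percent of its genes at an unadjusted p under 0.05 (right), with positive contrasts in red and negative ones in blue. Cell cycle and mitosis genes lie farthest to the left at -0.50, and small leucine-rich proteoglycans have the highest share with a positive contrast.

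Adipocyte genes held members of both signs, with 2 of 34 positive (5.88%), 3 negative (8.82%) and a median of 0.09. Over all genes these shares were 2.67% and 4.4%. FABP4, the fatty acid binding protein of fat cells, read 7.03 and 6.35 in DL-FP, 5.40 and 4.78 in DL-FS, 5.74 and 5.75 in AS-FP, and 5.60 and 4.54 in AS-FS. FP lay above FS in both breeds, and the contrast was -0.92 (SE 0.32). SLC2A4, the insulin-responsive glucose transporter, stood at -1.44 (SE 0.38) on its brightest probe set, while its other probe sets reached 0.15. ADIPOQ, the hormone adiponectin, went the other way. Averaged over 6 probe sets it read 4.52 to 4.92 on the 4 arrays of DL, 6.32 and 6.13 in AS-FP, and 5.57 and 4.77 in AS-FS. AS-FP lay above all other arrays, and the contrast was 0.88 (SE 0.27, adjusted p = 0.329), with -0.03 to 3.04 over the probe sets and 0.50 on the brightest. LEP, the hormone leptin, stood at 0.72 (SE 0.27, adjusted p = 0.462) on its 1 probe set above background, at levels of 3.20 to 4.01. ADIPOQ and LEP were named after their values were seen. The summed level of the 34 genes was 207.9 to 211.6 in DL-FP, 205.5 to 207.2 in DL-FS, 211.9 to 213.0 in AS-FP and 205.7 to 207.5 in AS-FS, and PLIN1, a coat protein of lipid droplets, lay between 5.45 and 6.02 on all arrays.

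Markers of other cell types were summed on each array. The summed level of 18 endothelial markers lay between 85.2 and 85.8 in DL-FP, 85.3 and 85.5 in DL-FS, 84.9 and 86.3 in AS-FP and 85.3 and 85.8 in AS-FS. For 23 macrophage and leukocyte markers it was 104.2 to 106.3 in DL-FP, 105.4 to 106.6 in DL-FS, 105.7 to 106.4 in AS-FP and 103.7 to 106.4 in AS-FS, with 1 member positive and 1 negative. PTPRC, the leukocyte antigen CD45, lay below background on all arrays at 1.91 to 2.42. The 20 skeletal muscle markers summed to 84.2 to 85.3, 84.9 to 85.0, 85.0 to 86.6 and 84.4 to 85.3 in the same order of groups, and MYOD1, the muscle determination factor, lay at 3.05 to 3.35. The 21 neural and Schwann cell markers summed to 105.3 to 107.2 over all arrays, with 1 member positive, GPM6B, a membrane glycoprotein of neural cells, at 0.75 on its brightest probe set and 0.44 on average (unadjusted p = 0.0543).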

How the data were processed

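Expression was measured on 8 porcine arrays in 4 groups of 2, grouped by the labels. The authors deposited log2 values. Scans were made with GCOS 1.1.1 (submitters' processing notes), and Expression Console then gave a robust multichip average for each probe set. The table holds 47845 probe sets and was not filtered by detection or spread. After 123 control probe sets were left out, 47722 were fitted with limma 3.58.1 in R 4.3.3, with a mean for each group, the replicate number as a block and empirical Bayes moderation whose prior follows mean level (3 residual and 5 prior degrees of freedom). P-values were two-sided and adjusted by the Benjamini-Hochberg method over all features tested, with 0.1, the threshold of the methods, as the limit. The same fit was run on 12541 genes, each the mean of its probe sets above background (prior degrees of freedom 7.14).

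Same-numbered arrays deviated together from their group means: over the 6 pairs of groups r ran from 0.190 to 0.246. The number was fitted as a block because the contrast was defined with it, not because of these values. With 2 arrays a group the deviations within a group mirror each other, so r cannot decide whether the number pairs the arrays. Neither labels nor paper say what it stands for. The 2 arrays of a group limit the precision, and signal over background stands in for depth. The labels name no technical batch.

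Symbols came from the platform annotation, 1 symbol for 25914 probe sets (13443 genes) and none for 21296. Of these symbols 395 were updated through synonyms, and 412 microRNA probe sets and a further 100 named for a microRNA were left unnamed. No sequences or positions were used here. Genes named in the text are, in each direction, the 20 leading genes with agreeing probe sets, up to 4 members of each of 52 gene lists in order of p, the genes called after averaging, and those marked as named after their values were seen. The genes called after averaging were themselves chosen after their values were seen. The contrast, the lists and the tests were chosen with earlier results of these data known. Core histones, 1 of the lists, had no measured member. Alternatives tried were no replicate block, no variance trend, robust moderation and a plain linear model with the block and without moderation. The linear model described in the paper names no such block, and it was not run. Others were an SD above 0.25, probe sets above background, 2 other scalings and each array left out. The fit of single probe sets was tested on simulated data with independent noise and known changes in AS-FP. The fit per gene was not tested in this way. Python 3.11.15 with numpy 2.4.6, pandas 2.3.3 and matplotlib 3.10.9 served for summaries and plots.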

Additional observations from a re-analysis of the deposited data

Results flagged for a closer look

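The 31 genes below are listed because a test of the difference itself, the contrast of FP minus FS between AS and DL, passed an adjusted p of 0.1 in limma after probe sets were averaged per gene. In 21 of them 1 probe set was above background, so nothing was averaged. All 31 were found by this test and are not weighed further. Each value is the contrast on the log2 scale.

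Called with every array left out in turn were MGP at 1.81, SESN3 at 1.51, COL11A1 at 1.42, PTN at 1.42, SFRP4 at 1.23 and PTGFR at 0.95. EREG at -1.87 was called in 7 of 8 such fits.

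Called in 4 or 5 of the 8 fits were PLCXD3 at 1.64, C7 at 1.25, LOC100513671 at 1.21, GRIN3A at 1.14, OLFML2B at 0.99, SLC5A7 at 0.98, ANKRD10 at 0.87, LOC100158121 at -0.87, S100A2 at -0.99 and GREM1 at -1.40. LOC100513671 read 7.56 and 6.83 in AS-FP, against 5.03 to 6.41 on the other arrays.

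Called in 3 or fewer were TNFSF13B at 1.62, CMAH at 1.06, ADAMTS5 at 0.99, KCNJ8 at 0.92, LAMA2 at 0.89, CCDC80 at 0.74, TFPI2 at 0.63, SPOCK3 at -0.81, CDK1 at -1.13, ACTG2 at -1.15, DTL at -1.16, ENO3 at -1.46, NOV at -1.92 and LOC100154959 at -2.01. LOC100154959 read 3.34 and 3.14 in AS-FP, near background, and 3.84 to 5.18 elsewhere.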

How the results depend on the processing

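With single probe sets, 0 were called under every alternative run, and the fit per gene gave 31. These runs were no replicate block, no variance trend, robust moderation and the plain linear model with the block. The others were both filters, both scalings, a threshold of 0.05 and each array left out. Of the 31 genes, 21 had 1 probe set above background. At an unadjusted p under 0.05, 532 positive and 446 negative probe sets were counted among those with an SD above 0.25, of which 509 and 433 were also counted without that filter, and 772 were negative without the replicate block. Of the 31 averaged genes, MGP and EREG, that is 2, were called without the replicate block. Without the variance trend 5 of the 31 were called and under the plain linear model 0, while the brightest probe set per gene gave 72. With 1 array left out the number called ran from 8 to 72. The alternatives to the averaged fit were chosen after seeing the data.

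Negative cell cycle genes numbered 3 without the replicate block, 21 without the variance trend, 14 under the linear model, 18 with an SD above 0.25, and 15 to 37 with 1 array left out. Negative contractile genes numbered 1, 3, 3 and 5 under those 4 settings and 3 to 9 with 1 array left out. Positive complement genes numbered 5 without the block, 4 under the linear model, and 5 to 13 with 1 array left out. Positive small proteoglycans numbered 2 under the linear model and 4 to 7 with 1 array left out. Positive Wnt modulators, 2 in the report, numbered 1 without the variance trend or with an SD above 0.25 and 2 to 3 with 1 array left out. Positive channel genes numbered 2 with an SD above 0.25 and 2 to 7 with 1 array left out. The cause of these moves was not tested. Among the named genes, the contrast of MKI67 on its brightest probe set turned to 0.05 without AS-FP 2 (range -0.41 to 0.05 with 1 array left out), and no other brightest probe set changed sign. For averages over probe sets, those of C1S, CFB, IGFBP5, NOG, PCNA and TPM2 changed sign with an array left out. Of 105 named genes, 15 had an unadjusted p under 0.05 on the brightest probe set and not on average, and 2 of these, PCNA and IGFBP6, had an average of opposite sign. Over all alternatives, 220 of 496 alternative values of the averaged called genes lost their call. With 2 arrays a group and 3 residual degrees of freedom, changes as large as many of those called here may go undetected. ACKR4, for example, averaged 1.42 and was not called (adjusted p = 0.145). Levels near 2.813 carry little information.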
